A study of Mus musculus with 24 samples.

Results

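Olfactory receptor genes (Olfr genes in mouse) form the largest mammalian gene family and encode the G protein-coupled receptors with which olfactory sensory neurons detect odorants. They lie in clusters along most chromosomes, and a mature olfactory sensory neuron expresses a single allele of a single receptor gene, with the others held silent. H3K27me3, trimethylation of lysine 27 of histone H3, is written by the EZH2 subunit of polycomb repressive complex 2 and marks many promoters that are held silent. In olfactory sensory neurons themselves, the receptor clusters are known for marks of constitutive heterochromatin rather than for the polycomb mark. The question addressed here is how often the promoters of these genes carried an H3K27me3 peak in cerebellar granule neurons (CGNs), small excitatory neurons of the cerebellar cortex that have no part in smell. RNA was not measured in the files used here, so silence of the genes is background and not a result.

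A promoter here is the window from 3 kb before to 3 kb after the 5' end of a protein-coding gene. The genes whose symbols start with Olfr gave 1135 such windows among 21938 protein-coding promoters in the mm10 build, and 20803 belonged to other genes. The CGNs were cultured from CD-1 IGS mouse pups at around the end of the first postnatal week, each replicate from pooled cerebella of litters, and H3K27me3 was profiled by CUT&RUN, in which an antibody tethers a nuclease that releases the marked chromatin. The 24 libraries fell into 8 groups of 3: untreated CGNs at DIV1, DIV3, DIV5 and DIV7 (days in vitro), CGNs given 5 µM GSK-126, an EZH2 inhibitor, at DIV1 and harvested at DIV5 with their own DMSO cultures, and CGNs given GSK-J4 (1 µM), which inhibits KDM6 demethylases, on the same schedule with their own DMSO cultures. The study found no change in H3K27me3 with GSK-J4 at this dose and concluded that its usable range in neurons is too small. All cultures kept past DIV2 received 1 µM cytosine arabinoside on that day against dividing cells, so the DIV1 libraries were taken before it. A promoter was counted as carrying the mark in a library when at least 1 bp of its window lay under a peak of that library's list. A window without a peak lay below the caller's threshold, and read depth is unknown.

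The lists held 4740 to 22832 peaks and covered 1.07 to 6.57 Mb, and replicate 1 of DIV1, DIV3 and DIV7 had among the shortest. Other families give the range of what these lists recorded. The Hox genes, a textbook polycomb target set, had a peak at 13 of 39 promoters in any library and at 3.20% ± 5.25 of promoters per library (SD, n = 24), below the 11.4% of all promoters outside the Olfr family. Ribosomal protein genes (Rpl and Rps), which are active in every cell, averaged 6.89% ± 3.77. Of 8 granule neuron markers, Zic1, Pax6, Tubb3 and Gabra6 had no peak in any library. Neurod1 had one in 5 libraries, Rbfox3 in 2, and Zic2 and Reln in 1 each, so none of the 8 reached 12 libraries. Among 6 glial markers only Sox10 had a peak, in 11 libraries. How far peak presence tracks H3K27me3 at these families was not tested.

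The DNA under the most recurrent Olfr peaks is shown first, so that its composition can be seen beside the counts. The sequences below are the bases around the position shared by the most libraries in the 3 members with a peak in the most libraries. For Olfr331 and Olfr95 the same distance from the 5' end follows in the nearest member of the cluster that had no peak in any library. They are GRCm38 (mm10) RefSeq sequence of the minus strand, which is the gene strand of all of them, written 5′ to 3′ with CpG dinucleotides in capitals, and stretches annotated as untranslated were left out. In chr11:58544346-58544502 of Olfr329-ps, within an intron:
Olfr329-ps: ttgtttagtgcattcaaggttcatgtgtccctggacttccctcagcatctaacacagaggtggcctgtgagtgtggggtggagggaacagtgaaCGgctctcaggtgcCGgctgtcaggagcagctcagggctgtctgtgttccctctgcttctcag
In chr11:58501794-58502093 of Olfr331, within the coding exon, and chr11:58491777-58492076 of Olfr332, within an intron:
Olfr331: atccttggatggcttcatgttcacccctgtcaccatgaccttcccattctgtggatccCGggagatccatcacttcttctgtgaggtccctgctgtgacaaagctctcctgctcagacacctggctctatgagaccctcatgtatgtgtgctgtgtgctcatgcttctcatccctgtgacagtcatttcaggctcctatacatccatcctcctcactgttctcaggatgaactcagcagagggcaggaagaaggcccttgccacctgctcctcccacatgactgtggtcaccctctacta
Olfr332: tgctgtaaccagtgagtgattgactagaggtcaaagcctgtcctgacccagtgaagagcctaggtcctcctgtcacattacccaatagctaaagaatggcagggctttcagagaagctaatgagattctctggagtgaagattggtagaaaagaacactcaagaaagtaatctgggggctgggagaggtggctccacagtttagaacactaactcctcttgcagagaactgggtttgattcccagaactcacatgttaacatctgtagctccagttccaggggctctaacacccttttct
In chr17:37211301-37211600 of Olfr95, within the coding exon, and chr17:37199177-37199476 of Olfr94, within an intron:
Olfr95: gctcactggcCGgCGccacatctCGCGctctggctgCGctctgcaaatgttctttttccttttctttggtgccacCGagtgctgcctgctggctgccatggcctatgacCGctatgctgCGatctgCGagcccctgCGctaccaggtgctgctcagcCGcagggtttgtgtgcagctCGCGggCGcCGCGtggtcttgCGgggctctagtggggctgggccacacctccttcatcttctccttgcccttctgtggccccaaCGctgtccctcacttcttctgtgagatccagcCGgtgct
Olfr94: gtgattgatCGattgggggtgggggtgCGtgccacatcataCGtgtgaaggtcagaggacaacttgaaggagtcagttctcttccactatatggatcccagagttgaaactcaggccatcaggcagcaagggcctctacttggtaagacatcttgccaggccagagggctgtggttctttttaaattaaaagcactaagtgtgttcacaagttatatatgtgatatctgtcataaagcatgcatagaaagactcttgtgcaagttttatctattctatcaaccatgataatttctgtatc
The stretch in Olfr95 had 63% GC and 19 CpG, against 43% GC and 3 CpG in Olfr94. The Olfr331 stretch had 53% GC but a single CpG, against 47% GC and 0 CpG in Olfr332, and the Olfr329-ps stretch had 56.0% GC with 2 CpG. In both pairs shown the stretch under the peak was coding and the other intronic. The order of the whole 6-kb windows was opposite in GC. They had 42.4% in Olfr95 against 43.1% in Olfr94, and 38.9% in Olfr331 against 42.4% in Olfr332. For Olfr329-ps the nearest member with no peak was also Olfr332, and there the coding stretch was the one without a peak. At that distance Olfr332 had 121 coding bp with 48.8% GC and 1 CpG. The whole windows of that pair had 40.7% GC in Olfr329-ps and 42.4% in Olfr332.

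Olfr promoters carried H3K27me3 peaks far less often than other promoters in every library. Per library, 1.16% ± 0.830 of Olfr windows had a peak, against 11.4% ± 3.42 of the other windows (SD, n = 24 libraries). The difference was -10.2 ± 2.97 percentage points and was negative in 24 of 24 libraries (sign-flip permutation test over libraries, two-sided, p = 2e-05, the smallest that 100000 resamples can give). The ratio of the Olfr percentage to the other percentage ranged from 0.0223 to 0.215 with a mean of 0.0977 ± 0.0570. Within a group of 3 libraries the exact sign-flip test cannot go below p = 0.25, and it gave that value in each of the 8 groups.

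The values by library were as follows. At DIV1, 3, 23 and 12 Olfr windows had a peak (0.264%, 2.03% and 1.06%), against 8.12%, 17.2% and 14.8% of other windows. At DIV3 the Olfr counts were 4, 12 and 39 (0.352%, 1.06% and 3.44%), against 7.47%, 13.4% and 18.2% of other windows. The 39 windows of DIV3 replicate 3, which also had the longest list, were the most in any library. At DIV5 the counts were 15, 24 and 29 (1.32%, 2.11% and 2.56%), against 12.7%, 10.7% and 14.1% of other windows. At DIV7 the counts were 2, 17 and 16 (0.176%, 1.498% and 1.41%), against 7.57%, 6.96% and 10.1% of other windows. The highest Olfr value of any library lay below the lowest value of other promoters in any library, 6.45%.

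**Figure D1:**
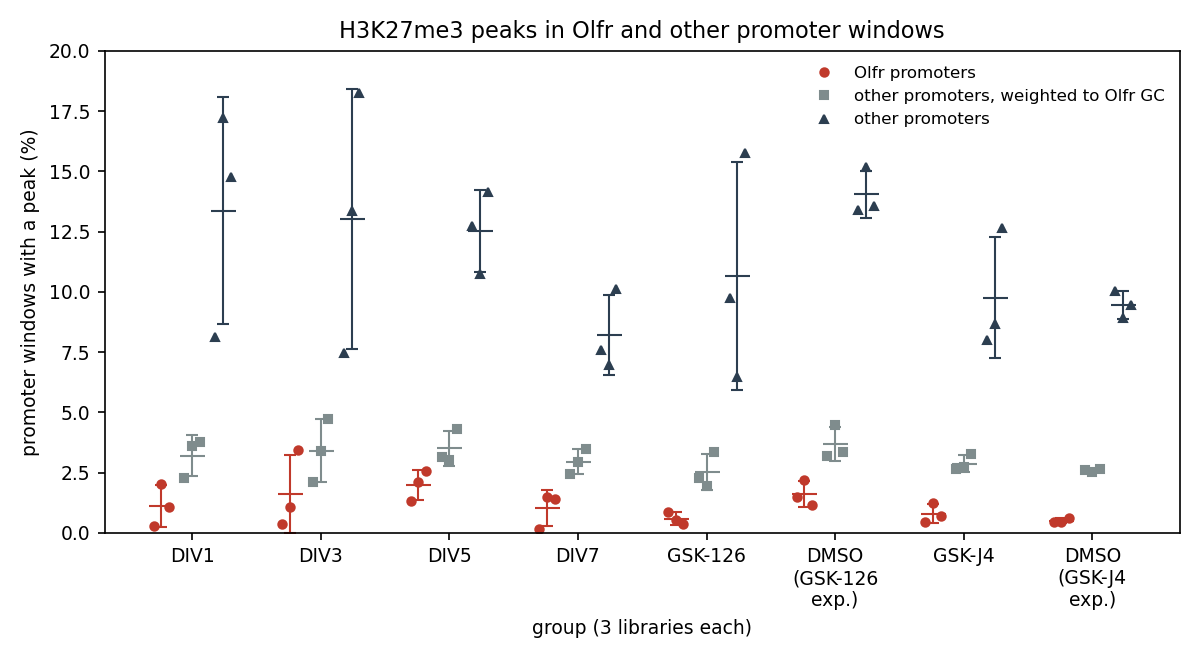
Percentage of promoter windows with a peak (y axis) in each group of 3 libraries (x axis), for Olfr promoters, for other promoters weighted to the GC content of the Olfr windows, and for other promoters. Points are libraries, and horizontal ticks with bars are means ± SD, cut off at 0. Olfr promoters lie lowest in every group, at 0.176% to 3.44%.

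Most Olfr promoters never had a peak. In 1026 of 1135 windows (90.4%) no library had one, against 60.4% of other windows, and 109 (9.60%) had a peak in at least 1 library, against 39.6%. Of those 109, 51.4% were seen in a single library only, against 37.6% of the other promoters with any peak. A peak in 3 or more libraries was found at 37 Olfr windows (3.26%), against 20.6% of other windows, and a peak in 12 or more at 3 (0.264%), against 9.96%. No Olfr promoter had a peak in more than 16 libraries, whereas 285 other promoters (1.37%) had one in all 24.

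**Figure D2:**
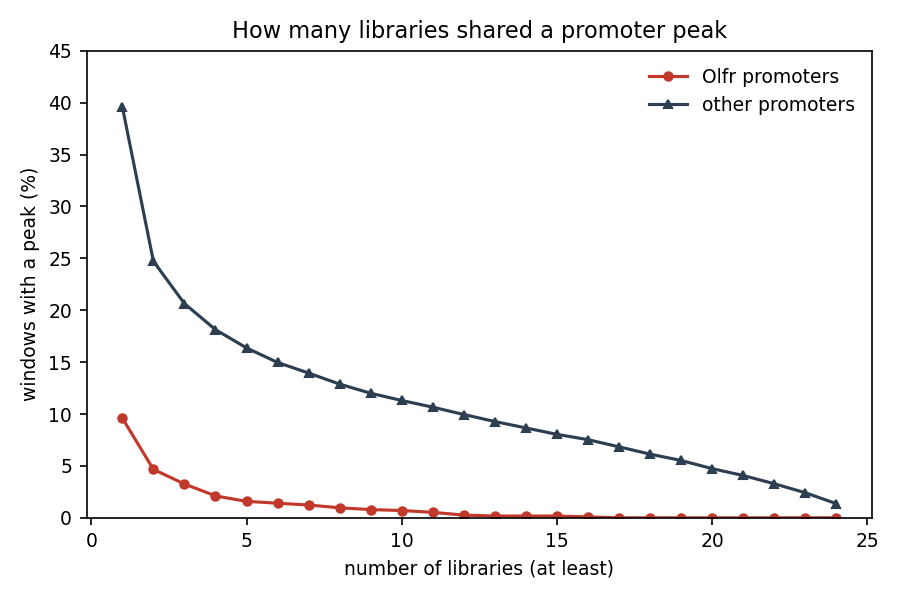
Percentage of windows (y axis) with a peak in at least the number of libraries on the x axis, for Olfr and other promoters. The Olfr curve falls to 0 after 16 libraries, while 1.37% of other promoters had a peak in all 24.

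Where Olfr windows had peaks, these were shorter than those in other windows and not lower in enrichment over local background. The 24 libraries held 346 peaks in Olfr windows, with a median length of 157 bp and a longest of 707 bp. Taking the median of each library, peak length averaged 156 bp in Olfr windows, against 221 bp in other windows, and was lower in 23 of 24 libraries (difference -64.9 ± 32.9 bp, SD; sign-flip permutation test, p = 2e-05, adjusted over 3 peak measures p = 3e-05). Fold enrichment averaged 3.99 in Olfr windows and 3.67 in other windows and was higher in 23 of 24 libraries (difference 0.316 ± 0.207, adjusted p = 3e-05 by the same permutation test). The −log10 q averaged 1.39 in Olfr windows and 1.46 in other windows, a difference of -0.0728 ± 0.180 that did not pass the test (permutation p = 0.0550). Of the peaks in Olfr windows 43.6% reached within 1 kb of the 5' end, against 65.8% of those in other windows.

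Peak presence in Olfr windows moved with the base composition of the window. Olfr windows had 37.4% ± 3.55 GC, against 47.0% ± 4.91 in other windows (mean ± SD over windows). Olfr windows with a peak in any library had 41.95% ± 3.41 GC, against 36.9% ± 3.19 in those with none. Below 36% GC, 0.881% of 454 Olfr windows had a peak in any library, against 7.22% of 291 other windows. The shares were 3.44% of Olfr and 8.19% of other windows at 36% to 38% GC, and 8.20% of Olfr and 15.3% of other windows at 38% to 40%. From 40% to 42% GC they were 23.8% of Olfr and 22.7% of other windows, and from 42% to 44% they were 43.8% of Olfr and 30.4% of other windows. At 44% to 46% GC they were 35.7% of Olfr and 37.0% of other windows. In the count over any library, Olfr windows were below other windows at each step under 40% GC, where most of the family lies.

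**Figure D3:**
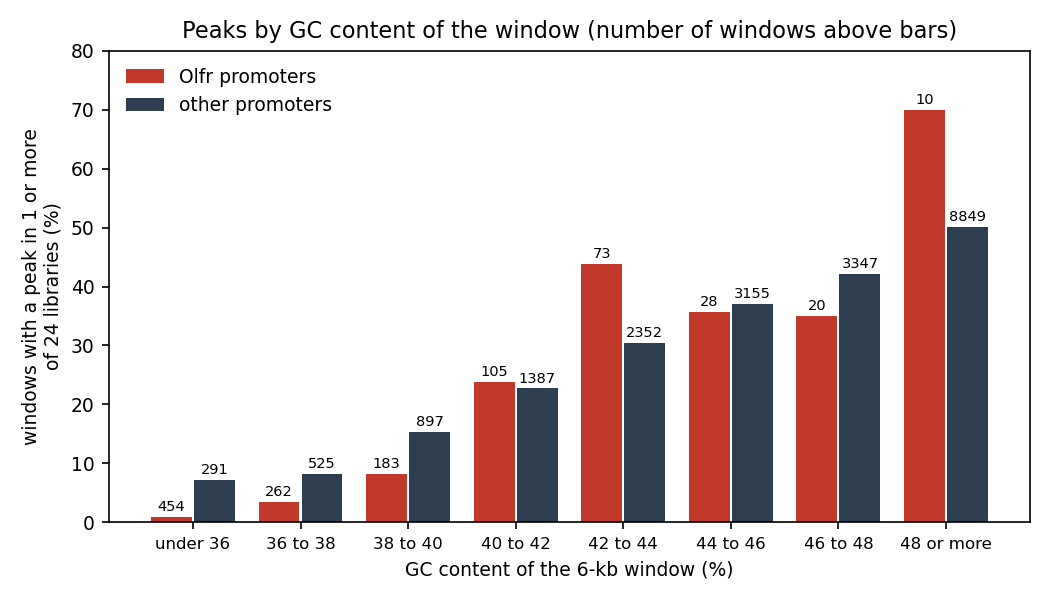
Percentage of windows with a peak in 1 or more of the 24 libraries (y axis) by GC content of the 6-kb window (x axis), for Olfr and other promoters, with the number of windows above each bar. Olfr windows lie below other windows under 40% GC and at or above them from 40% to 44% GC.

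The comparison within libraries was also made with the other promoters weighted to the GC distribution of the Olfr windows, a setting chosen after the data were seen. The weighted percentage of other promoters averaged 3.09%, against which the 1.16% of Olfr promoters was lower by 1.94 ± 0.489 points on average and in 24 of 24 libraries (sign-flip permutation test, p = 2e-05, adjusted over 6 such comparisons p = 6e-05). The gap was -1.94 points with the weighting and -10.2 points without it. For the 899 Olfr windows under 40% GC the percentages were 0.287% in Olfr and 2.36% in weighted other promoters (difference -2.07 ± 0.412, lower in 24 of 24 libraries, permutation adjusted p = 6e-05). For the 236 windows of at least 40% GC they were 4.47% in Olfr and 5.89% in weighted other promoters (difference -1.42 ± 2.42, lower in 18 of 24 libraries, permutation adjusted p = 0.00905). Under 36% GC, 21 of 291 other windows had a peak in any library, and these 291 averaged 2.98% per library. The 525 other windows at 36% to 38% GC averaged 0.968%. The weighted value under 40% GC thus rests partly on few windows, and a test over libraries does not measure the spread between genes. CpG content also differed, with an observed over expected CpG ratio of 0.123 in Olfr and 0.336 in other windows. Below a ratio of 0.1, 6.03% of Olfr and 18.3% of other windows had a peak in any library, and at 0.1 to 0.15 the shares were 8.30% of Olfr and 17.9% of other windows. They were 12.6% of Olfr and 24.4% of other windows at 0.15 to 0.2, and 32.6% of Olfr and 32.7% of other windows at 0.2 to 0.25. Olfr windows were lower at each step under 0.2, where most of the family lies, and no weighting by CpG content was made.

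The position of a gene in its surroundings moved with peak presence as well. Of 428 Olfr promoters farther than 200 kb from the nearest 5' end of a protein-coding gene outside the family, 8 (1.87%) had a peak in any library. The share was 7.87% of 470 members at 50 to 200 kb and 26.6% of 214 members at 10 to 50 kb. GC content and distance moved together in the family, so the shares were also taken within each level of GC. Among members under 40% GC, 7.89% of those within 50 kb of another gene had a peak (9 members), as did 2 of 406 (0.493%) beyond 200 kb. Among members of at least 40% GC, 55 of 123 (44.7%) within 50 kb had a peak, as did 20 of 91 (22.0%) at 50 to 200 kb and 6 of 22 (27.3%) beyond 200 kb. Only 7 members had a window that overlapped the window of a gene outside the family.

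By cluster, defined as Olfr genes of a chromosome with gaps of at most 1 Mb, the peaks were concentrated in a few places. There were 50 such groups, 8 of them single genes, and 21 of the 50, with 225 members, had no peak in any library. The 6 largest clusters held 645 members, of which 25 (3.88%) had a peak in any library. In the largest, on chromosome 2 at 85.34 to 90.40 Mb, 2 of 227 members had one. In the chromosome 7 cluster at 102.5 to 105.4 Mb, which surrounds the beta-globin genes and is known for the class I receptors that resemble those of fish, 9 of 129 members had a peak, none of them in more than 3 libraries. In the chromosome 17 cluster at 37.09 to 38.33 Mb, beside the major histocompatibility complex, 7 of 49 members had one.

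The chromosome 11 cluster at 58.46 to 59.59 Mb held the most members with a peak and the most peaks. It had 23 members, of which 15 had a peak in any library, 7 in 3 or more and 2 in 12 or more, and its 75 member and library combinations made up 23.8% of the 315 found in the family. Chromosome 11 as a whole held 82 members (7.22% of the family) and 41.3% of those combinations. Leaving the cluster out lowered the Olfr percentages, and 94 of the remaining 1112 members had a peak in any library. In this cluster all 4 windows under 40% GC and 11 of 19 windows of at least 40% GC had a peak, against 2.68% of 895 and 32.3% of 217 windows in the rest of the family. By share of possible member and library combinations, 4 groups of 1 to 4 members were ahead of the 13.6% of this cluster. The pair of Olfr1373 and Olfr1371 was highest at 31.25%. Of the 50-base sequences of their windows, 41.4% and 30.4% occurred more than once in the genome, so the copy of origin is less certain there. The median window GC of the cluster was 42.8%, against 34.6% in the largest cluster on chromosome 2. Smaller groups on the same chromosome included that of Olfr463 and Olfr464 at 87.89 to 87.92 Mb, with peaks at 2 of 3 members, whereas the 30 members at 73.35 to 74.36 Mb had none.

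**Figure D4:**
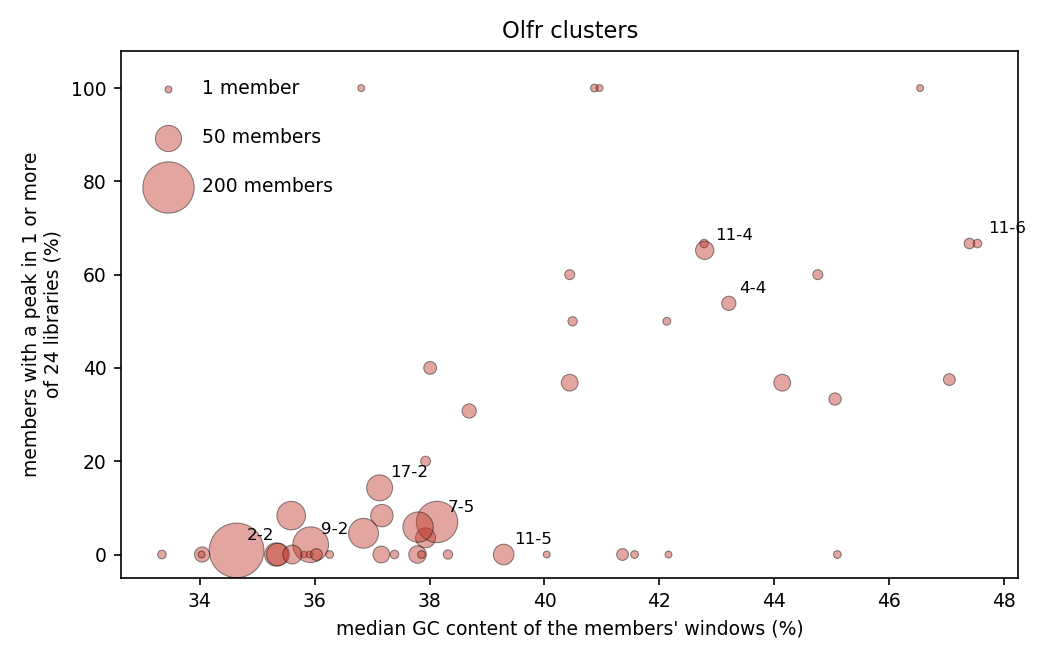
Percentage of members with a peak in 1 or more of 24 libraries (y axis) against the median GC content of the members' windows (x axis) for the 50 Olfr clusters, with the area of a point growing with its number of members. Labels give the chromosome and the order of the cluster along it. The large clusters lie at low GC near 0%, and 11-4 is the cluster of Olfr329-ps and Olfr331.

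In the leading chromosome 11 cluster the members with a peak in 3 or more libraries, other than Olfr313, lay in the stretch from Olfr331 to Olfr325. Olfr329-ps had a peak in 16 libraries, Olfr331 in 15, Olfr224 in 10, Olfr313 in 9, Olfr325 in 8, Olfr328 in 4 and Olfr330 in 3. Olfr320 and Olfr322 had a peak in 2 libraries each, and Olfr315, Olfr316, Olfr317, Olfr318, Olfr323 and Olfr324 in 1 each. Between Olfr331 and Olfr329-ps, Olfr330 had a peak in few libraries, so recurrence differed between neighbouring genes.

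Olfr329-ps, whose symbol marks it as a pseudogene although the annotation lists it as protein-coding, had the most recurrent peak of the family. Its window was covered by 0%, 4.75% and 0% at DIV1, by 0%, 1.38% and 5.25% at DIV3, by 4.90%, 6.33% and 5.50% at DIV5 and by 0%, 2.85% and 0% at DIV7. It was covered by 0%, 0.850% and 0% in GSK-126 libraries, against 2.42%, 3.15% and 4.13% in their DMSO libraries. It was covered by 2.23%, 2.97% and 6.03% in GSK-J4 libraries, against 5.85%, 0% and 4.42% in their DMSO libraries. All libraries at DIV5, after GSK-J4 and with DMSO in the GSK-126 experiment had the peak. In these full lists the 3 GSK-126 libraries were below their DMSO libraries, whose lists were all longer. With full lists limma called 636 of 2385 tested promoters lower and 5 higher after GSK-126, and did not call this window (limma adjusted p = 0.173). How many other promoters separated in the same way was not counted. With lists of common length and every promoter covered in 1 or more libraries, the window was covered by 0.283% after GSK-126 and 0.805% with DMSO (difference -0.52 points, limma adjusted p = 0.741). The bases shared by 14 libraries lay 2069 bp past the 5' end, where an intron meets a stretch annotated as untranslated. Of the 300 bp around them, 143 bp were annotated as untranslated.

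Olfr331 had its shared bases inside its only coding exon, 628 bp past the 5' end, again in 14 libraries. Its window was covered by 3.35%, 1.83% and 4.22% in GSK-126 libraries, against 0%, 2.73% and 5.27% in their DMSO libraries, so these groups overlapped. At DIV5 it was covered by 2.75%, 6.12% and 2.62%, and at DIV7 in replicate 2 only, by 0.833%. Of its 50-base sequences 20.2% occurred more than once in the genome. The annotated gene of Olfr331 spans 975 bp, against 6622 bp for Olfr329-ps. Whether the annotated 5' ends of members are transcription starts was not examined.

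Olfr95, the most recurrent member outside chromosome 11, had a peak in 12 libraries. Its window was covered by 0%, 7.05% and 6.28% at DIV1, by 0%, 0% and 11.8% at DIV3, by 0%, 1.98% and 0.833% at DIV5 and by 0%, 0% and 4.77% at DIV7. It was covered by 2.80%, 5.82% and 0% in GSK-126 libraries, against 9.17%, 6.95% and 0% in their DMSO libraries. It was covered by 0%, 0% and 2.57% in GSK-J4 libraries, against 2.38%, 0% and 0% in their DMSO libraries. Every one of the 8 groups held at least 1 library without a peak at this window, so no groups were separate. The 8 libraries that shared its most common bases did so in the CpG-rich coding stretch shown above.

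Among the other recurrent members, Olfr463 had a peak in 11 libraries, including all 3 GSK-J4 libraries (5.999%, 5.97% and 5.57% of the window), against 0%, 6.58% and 0% in their DMSO libraries. Its shared bases lay upstream of the gene, at -1309 bp from the 5' end. Olfr221 and Olfr1371 had a peak in 11 libraries each, and Olfr221 had none in the 3 DMSO libraries of the GSK-126 experiment or in GSK-J4 libraries. Olfr55 and Olfr239, neighbours on chromosome 17, had peaks in 10 and 7 libraries, but 69.3% and 69.9% of the 50-base sequences of their windows occurred more than once in the genome, and whether the bases under their peaks were among these was not examined. Olfr1033, the only recurrent member of the largest cluster (6 libraries), had 82.6% repeated 50-base sequences. Peaks at these 3 windows are uncertain in their copy of origin. Olfr464 had a peak in 8 libraries, Olfr1395 and Olfr282 in 7 each. The highest coverage of any of these 15 windows was 13.6%, at Olfr464 in DIV3 replicate 3.

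**Figure D5:**
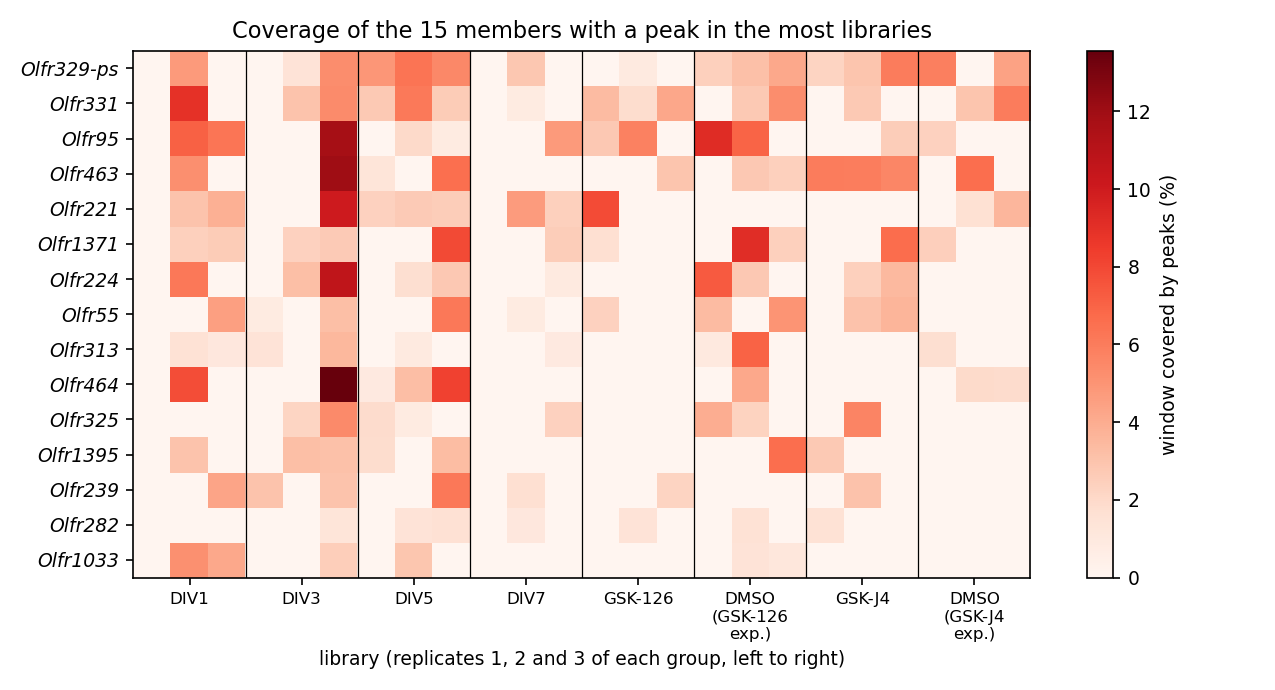
Percentage of the 6-kb window covered by peaks (colour) for the 15 members with a peak in the most libraries (rows) in the 24 libraries (columns, 3 replicates per group). White cells have no peak, and no member was covered in every library of every group.

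Over days in vitro the Olfr percentage did not follow a trend that could be told from the spread between libraries. It averaged 1.12% ± 0.882 at DIV1, 1.62% ± 1.62 at DIV3, 2.00% ± 0.625 at DIV5 and 1.03% ± 0.739 at DIV7 (SD, n = 3 each). DIV7 minus DIV1 was -0.0881 points (exact permutation test, two-sided, p = 0.9, adjusted over 8 tests p = 0.974). The slope over DIV was 0.00587 points per day (exact permutation test over 369600 arrangements, p = 0.974), and its sign changed when single libraries were left out. The ratio to other promoters was 0.126 ± 0.0967 at DIV7 and 0.0740 ± 0.0426 at DIV1, a difference of 0.0521 (exact permutation p = 0.5, adjusted p = 0.667). This difference was 0.00747 without DIV7 replicate 2, 0.1035 without DIV7 replicate 1 and 0.0314 without DIV1 replicate 1. With 3 libraries in each group the exact permutation test cannot go below p = 0.1.

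GSK-126 libraries had fewer Olfr promoters with a peak than their DMSO libraries, but their lists were also shorter. There were 10, 6 and 4 Olfr windows with a peak after GSK-126 (0.881%, 0.529% and 0.352%), against 17, 25 and 13 with DMSO (1.498%, 2.20% and 1.15%), so the groups did not overlap. The difference of -1.03 points had p = 0.1 in the exact permutation test, the smallest it allows, and adjusted p = 0.629. Other promoters had peaks at 9.73%, 6.45% and 15.8% after GSK-126, against 13.4%, 15.2% and 13.6% with DMSO. The lists held 5401 to 8723 peaks after GSK-126 and 13255 to 17142 with DMSO. With every list of the experiment limited to its strongest peaks up to the same summed length, the Olfr counts were 4, 6 and 0 after GSK-126, against 2, 2 and 1 with DMSO, and the difference turned to 0.147 points (exact permutation p = 0.5). The study reports a dose-dependent loss of total H3K27me3 after GSK-126 by western blot. Lists of the same length take out any loss common to all regions, so the trimmed comparison cannot show one. GSK-126 replicate 3 had the most other promoters of its group and the fewest Olfr promoters, and without it the difference was -0.910 points.

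After GSK-J4, 5, 14 and 8 Olfr windows had a peak (0.441%, 1.23% and 0.705%), against 5, 5 and 7 with DMSO (0.441%, 0.441% and 0.617%). The groups overlapped, and the difference of 0.294 points had p = 0.4 in the exact permutation test (adjusted p = 0.64). It was 0.0734 points without GSK-J4 replicate 2, 0.4699 points without GSK-J4 replicate 1 and 0.117 points with lists of common length. Other promoters had peaks at 7.98%, 8.65% and 12.6% after GSK-J4, against 10.0%, 8.89% and 9.44% with DMSO. The lists of this experiment held 6287 to 10046 peaks after GSK-J4 and 6876 to 8292 with DMSO. They covered 1.40, 1.62 and 3.11 Mb after GSK-J4, against 2.08, 1.70 and 1.89 Mb with DMSO.

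Single members were compared by the percentage of the window covered, at the same summed list length within each experiment, with limma and Benjamini-Hochberg adjustment over all promoters covered in at least 3 libraries. A change common to all promoters would not show at the same list length. For DIV7 minus DIV1, 1.00% of 1795 tested promoters passed an adjusted p of 0.05, and 0 of the 6 Olfr members that entered the test did (Olfr331, Olfr224, Olfr313, Olfr282, Olfr55 and Olfr239). The smallest limma adjusted p among these 6 was 0.861, and 0 of them had an unadjusted p below 0.05. For GSK-126 minus DMSO 6.82% of 939 promoters passed, and the single Olfr member tested did not: Olfr331 was covered by 0.611% after GSK-126 and 1.87% with DMSO (difference -1.25 points, SE 1.70, limma adjusted p = 0.803). With all deposited peaks its sign turned, at 3.13% after GSK-126 and 2.67% with DMSO. For GSK-J4 minus DMSO 0% of 1524 promoters passed, and the single Olfr member tested, Olfr329-ps, was covered by 1.73% after GSK-J4 and 3.42% with DMSO (difference -1.69 points, SE 2.50, limma adjusted p = 0.975). With all deposited peaks its sign turned too, at 3.74% after GSK-J4 and 3.42% with DMSO, and leaving out single libraries gave -3.40 points (without DMSO replicate 2) to -0.47 points (without DMSO replicate 1). At an unadjusted p below 0.05, 0 Olfr members were found in either drug comparison. The remaining members did not enter the tests, because they were covered in fewer than 3 libraries of an experiment, and nothing is said of their change.

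Other chemosensory receptor families also had few peaks. Vmn1r genes, vomeronasal receptors of the first type, had a peak at 19 promoters (9.09%) in any library and at 0.797% ± 0.866 per library. Vmn2r genes, the second type, had one at 5 of 122 and at 0.376% ± 0.482. Trace amine receptors (Taar) had one at 1 of 15 promoters, and bitter taste receptors (Tas2r) at 0 of 35. The Olfr percentage was above that of Vmn1r by 0.359 ± 0.790 points (higher in 16 of 24 libraries, sign-flip permutation test, adjusted p = 0.0353) and above that of Vmn2r by 0.781 ± 0.967 points (higher in 19 of 24, permutation adjusted p = 0.00032). It was below that of Hox genes by 2.05 ± 4.79 points on average, lower in 15 of 24 libraries (permutation adjusted p = 0.00905). DIV3 replicate 3 had peaks at 25.6% of Hox promoters, and without it the difference was -1.17 ± 2.18 points (permutation p = 0.0152, unadjusted). The difference from Vmn1r had an unadjusted permutation p of 0.0569 to 0.0723 when DIV1 replicate 2, DIV5 replicate 2 or 3, DIV7 replicate 3, GSK-J4 replicate 2 or replicate 1 or 2 of the DMSO libraries of the GSK-126 experiment was left out. Tissue-restricted clusters outside the senses were not uniform, with 3.58% ± 2.51 for keratin-associated proteins (Krtap, 57 promoters) and 0.893% ± 1.69 for beta-defensins (Defb, 42 promoters). Each sign-flip test treated the 24 libraries as independent. The comparisons with Vmn1r, Vmn2r and Hox genes were not weighted by GC content. Few genes of these families had a peak, and a test over libraries does not measure the spread between genes.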

How the data were processed

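The authors trimmed reads with Trimmomatic 0.38, aligned them with STAR 2.7.2b and called broad peaks in each library with MACS2 2.1 at a false discovery rate of 0.1. The control used for calling is not given in the sources used here. For every peak the deposited list holds a fold enrichment, a ratio over local background. Beside it stand the −log10 p-value and the −log10 q-value that the authors' caller gave. The authors' DESeq2 test used read counts, which the lists do not hold. Read depth is unknown, so no interval that needs it is given.

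5' ends came from GENCODE vM21 and sequence from GRCm38.p6, both of the mm10 build. A 6-kb window counted as marked from 1 bp of overlap. Base composition and 50-base sequences occurring more than once were computed on the reference, which is C57BL/6J, while the cells were CD-1 IGS. Shares were compared by permutation tests over libraries (scipy 1.17.1), and coverage with limma 3.58.1 in R 4.3.3 (lmFit, robust eBayes) after limiting each list to the shortest summed length of its experiment by −log10 p, namely 1.07 Mb (GSK-126 and its DMSO), 1.11 Mb (days in vitro) and 1.40 Mb (GSK-J4 and its DMSO). The limma fit was checked only on simulated coverage with normally distributed values. That check says nothing of windows that have no peak in most libraries. Members, clusters, families and lists were chosen with earlier results of these data known. Named genes are the 15 members with a peak in the most libraries, members tested by limma and members of the leading cluster. Alternatives were a −log10 q of at least 2, windows of 1 kb on each side, an overlap of 100 bp, lists of common length, Olfr windows overlapping others left out, the replicate number as a block and leaving out each library. Per the study's methods a culture replicate is CGNs from pooled tissue of litters, and whether libraries of different groups shared litters is not given in the sources used here.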

Additional observations from a re-analysis of the deposited data

Results flagged for a closer look

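The drug effects on the Olfr percentage differed with all deposited peaks and 3-kb windows, and the difference did not pass the test under the 3 alternatives run. GSK-126 minus DMSO was -1.03 points and GSK-J4 minus DMSO was 0.294 points, a difference of -1.32 points (permutation of labels within each experiment, 400 arrangements, exact p = 0.02, not adjusted, and singled out after the values were seen). The same test on the ratio of the Olfr percentage to that of other promoters gave -0.0805 (exact permutation p = 0.065). With lists of common length the difference between the drug effects was 0.0294 points (exact permutation p = 1), with a −log10 q of at least 2 it was 0 points (exact permutation p = 1), and with windows of 1 kb on each side it was -0.382 points (p = 0.245, exact permutation). Every GSK-126 list was shorter than every DMSO list of its experiment. The GSK-J4 lists covered 1.40, 1.62 and 3.11 Mb, against 2.08, 1.70 and 1.89 Mb with DMSO, so those groups overlapped. The Olfr percentage averaged 0.587% after GSK-126 and 0.793% after GSK-J4. It averaged 1.615% with DMSO in the GSK-126 experiment and 0.499% with DMSO in the GSK-J4 experiment, with 14957 and 7675 peaks on average. The DMSO groups were thus farther apart than the drug groups, and a difference between drugs cannot be told apart from one between experiments.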

How the results depend on the processing

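The lower percentage of Olfr promoters kept its direction and its side of the threshold under every alternative run, at -5.45 points with lists of common length, -1.49 points with a −log10 q of at least 2, -8.10 points with windows of 1 kb, -10.5 points without the leading chromosome 11 cluster and -10.0 to -10.4 points without each library in turn. Differences between conditions were less stable. For GSK-126 minus DMSO the Olfr percentage turned to 0.147 points with lists of common length and to 0.0294 points with a −log10 q of at least 2, and the ratio turned to 0.0166 and 0.0593. DIV7 minus DIV1 turned to 0.235 points with lists of common length, and ranged from -0.514 to 0.367 points without each library in turn. It was 0.367 points without DIV1 replicate 2 and 0.338 points without DIV7 replicate 1. The slope over DIV turned to -0.0132 points per day with a −log10 q of at least 2, to -0.0132 with windows of 1 kb, to -0.0411 with an overlap of 100 bp and to -0.00881 without replicate 1 of every day, the last chosen after the data were seen, and ranged from -0.0696 to 0.0894 without each library in turn. For GSK-J4 minus DMSO the Olfr percentage kept its direction, at 0.0294 points with a −log10 q of at least 2 and 0.0734 to 0.4699 points without each library in turn. The cause was not tested.

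Limma called 0 Olfr members under every alternative in which a member entered the test. No member entered it for GSK-126 minus DMSO without GSK-126 replicate 2 or without DMSO replicate 2 or 3, or for GSK-J4 minus DMSO with windows of 1 kb, so these say nothing. The difference of Olfr331 after GSK-126 turned to 0.47 points, and that of Olfr329-ps after GSK-J4 to 0.32 points, with all deposited peaks and with ranking by fold enrichment. Over all promoters it called 18 for DIV7 minus DIV1, 40 with all deposited peaks and 5 with ranking by fold enrichment, and 0 to 33 without each library in turn. For GSK-126 minus DMSO it called 64, 641 with all deposited peaks and 0 to 22 without each library in turn. It called 0 without DIV7 replicate 1, without either of GSK-126 replicates 1 and 3, or without DMSO replicate 2. Same-numbered libraries had deviations correlated at only -0.0585 to 0.0930. The best match had the same number for every GSK-J4 replicate and for GSK-126 replicate 3, and for none of the others. Whether the replicate numbers pair the samples is therefore not known. With the replicate number as a block, limma called 0 promoters for GSK-126 minus DMSO. As a pair the block left the Olfr differences at -0.0881 points for DIV7 minus DIV1, -1.03 points for GSK-126 and 0.294 points for GSK-J4 (exact sign-flip permutation p = 0.75, 0.25 and 0.5, where 0.25 is the smallest possible).

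Peak lists give no read depth, so a missing peak at AT-rich windows cannot be told from a weak signal there.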

Other observations

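Of 272 windows of annotated Olfr pseudogenes that were not counted as members, 16 (5.88%) had a peak in any library, against 9.60% of the members. Per library 1.10% ± 0.759 of these pseudogenes had a peak (SD, n = 24), against 1.16% ± 0.830 of the members, and the difference was not tested.

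Genes taken here as a list for olfactory sensory neurons, apart from the receptors, were not uniform. Gng13, a G protein gamma subunit of chemosensory cells, had a promoter peak in 24 of 24 libraries with a mean coverage of 15.8% of the window, and Gnal, the olfactory G protein alpha subunit, in 13. Omp, the olfactory marker protein, had a peak in 2 libraries and Ano2 and Lhx2 in 1 each. Cnga2, Adcy3, Rtp1, Rtp2, Ebf1, Ldb1 and Stoml3 had none. Gng13 and Gnal have transcripts in other brain cells too, and these promoters were singled out after their values were seen.

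Of 109 members with any peak, 56 had it in 1 library only, which gave 56 of the 315 member and library combinations, and DIV3 replicate 3 and DIV5 replicate 3 held 7 of these each.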
